A study of Homo sapiens with 33 samples.

Results

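The hTR pool is a set of 614 tiles named after hTR, the RNA subunit of human telomerase (gene symbol TERC), out of 3358 tiles in the 5 pools of the study. It was precipitated from HEK293T cells through a FLAG tag on hTERT, the reverse transcriptase of the same enzyme. All 614 lines of the pool, each summed over its 25 barcodes, are described here, and none was lost to the filter on low counts. The study asks which stretches of an RNA come down with a protein from living cells, by comparing the read count of each oligonucleotide in an immunoprecipitate with that in Input. The 6 libraries form 2 groups of 3: Input and an anti-FLAG immunoprecipitate, replicates 1 to 3, paired here by the replicate number in the labels. Cells of both groups were HEK293T, a human embryonic kidney line that has telomerase of its own, carried overexpressed FLAG-hTERT, received the pool by transfection, were collected after 48 hours and were fixed with 0.1% formaldehyde for 10 minutes.

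Telomerase adds telomeric repeats to chromosome ends, and hTR supplies the template that hTERT copies. In hTR the template and pseudoknot region and a conserved stem region contact hTERT, whereas the H/ACA domain towards the 3′ end binds dyskerin and its partners and is needed for the RNA to accumulate. The labels and the table give tile names only. The number in a name was therefore used as an order and nothing more: where a tile lies in hTR, its length and its sequence were not used here. RefSeq lists TERC with 451 bases (GRCh38.p14), fewer than the number of tiles.

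Libraries held 7108444 to 11780535 reads, and the smallest count of a tile in any library was 206 reads. Input replicate 1 stood apart. Its log2 CPM (reads of a tile scaled to a fixed library size) correlated at 0.88 and 0.89 with the other Input libraries, which correlated with each other at 0.99. In it 215 tiles differed over 2-fold from both other Input libraries, 165 lower and 50 higher, against 0 tiles for Input replicate 2 or 3. The immunoprecipitate of replicate 1 differed in the same way in 119 tiles, 8 lower and 111 higher. Values of the single pairs are therefore given for most results below, and the main counts of calls also without replicate 1. The counts of 2-fold changes, of tiles without overlap, of steps and of barcodes are given with all 3 replicates only.

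No precipitation from cells without FLAG-hTERT was analysed here, so recovery with hTERT and recovery by any anti-FLAG precipitation cannot be told apart. CPM values are shares of a closed pool after TMM scaling: a rise of some tiles lowers the share of others, and the scaling sets where 0 lies on the log2 ratio. Differences between tiles within a pair do not depend on that scaling.

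In the paired fit of edgeR, 343 of 614 tiles (55.9%) passed an adjusted p of 0.05, 177 higher in the immunoprecipitate (28.8%) and 166 lower (27.0%). The tiles called higher had a median log2 fold change of 0.98 (1.98-fold) and reached 1.79. Tiles called lower had a median of -0.85, which leaves 0.555 of their Input share, and reached -1.46. At least a 2-fold change was seen in 85 of the tiles called higher and in 38 of those called lower. In 334 of the 343 called tiles all 3 pairs moved in the direction of the call.

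The number of calls changed with the pairing and with the replicates used. Without the replicate block edgeR called 0 tiles (smallest adjusted p = 0.0622), although 252 had an unadjusted p under 0.05. By DESeq2 without the block 144 tiles passed, of which 92 were higher and 52 lower. The loss of calls was not seen once replicate 1 was left out: without both the block and replicate 1 edgeR called 403 tiles, 339 of them called in the same direction in the paired fit, and without the block and Input replicate 1 it called 275. With the block, 406 tiles passed without replicate 1 (198 higher, 208 lower) and 367 without replicate 3 (177 higher, 190 lower). Without replicate 2, only 3 tiles passed, hTR_109, hTR_199 and hTR_220, all higher, and 174 had an unadjusted p under 0.05. Counted with no model, in 257 tiles (41.9%) the 3 immunoprecipitate libraries did not overlap the 3 Input libraries, lying above them in 102 (16.6%) and below them in 155 (25.2%).

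Direction followed the tile number closely. The tile numbers are split here at 194, 308 and 421. These borders are those of a least-squares split of the ratios of pair 1 into 4 stretches of at least 20 tiles. Counts of calls, which include pair 1, and the values of pair 1 by stretch are therefore not independent of the borders. Pairs 2 and 3 did not enter that split. The borders were, however, chosen with earlier results of these data known, so no pair is independent of them. The same split made on pair 2 alone fell at 194, 299 and 421, and on pair 3 alone at 194, 285 and 421, so the outer borders recurred to the tile and the middle border did not. Of the 193 tiles up to 193, 19 rose and 0 fell. Of the 114 tiles from 194 to 307, 105 rose, 0 fell and 9 did not pass. Of the 113 tiles from 308 to 420, 52 rose and 8 fell. Among the 194 tiles from 421 on, 158 fell, 1 rose and 35 did not pass. At an unadjusted p under 0.05, and by DESeq2 with the block, there were also 0 lower tiles in both stretches up to 307. That DESeq2 fit moved the median log2 fold change of all tiles up by 0.12, a shift towards higher calls. The count of tiles 1 to 193 was not stable: DESeq2 called 59 of them higher. The paired fit of edgeR without replicate 3 called 5 of them higher and 1 lower. Without replicate 1 the tiles called higher in these 4 stretches, in order, numbered 25, 111, 61 and 1, and those called lower 1, 0, 26 and 181. Without replicate 2 they were 1, 2, 0 and 0 higher and 0 throughout lower, with 31, 79, 35 and 1 higher and 0, 0, 1 and 27 lower at an unadjusted p under 0.05.

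The shift shows in the plain division of reads, before any scaling. Tiles 421 to 614 took 59.6%, 48.8% and 50.5% of Input reads in replicates 1, 2 and 3, and 36.4%, 24.2% and 29.9% of immunoprecipitate reads. Tiles 194 to 307 took 15.4%, 22.3% and 21.5% of Input reads and 29.9%, 42.8% and 37.8% of immunoprecipitate reads. The 2 fractions did not overlap in either stretch. For each read of tiles 421 to 614 there were 0.258, 0.456 and 0.425 reads of tiles 194 to 307 in Input and 0.821, 1.77 and 1.26 in the immunoprecipitate, a 3.18-, 3.87- and 2.98-fold change. The remaining stretches moved less. Tiles 308 to 420 went from 15.9%, 25.9% and 25.1% to 23.7%, 29.8% and 28.4%, and tiles 1 to 193 from 9.06%, 3.03% and 2.94% to 10.0%, 3.23% and 3.97%. The fractions overlapped for tiles 308 to 420 and for tiles 1 to 193. Replicate 1 held more of tiles 1 to 193 than the other replicates did in both fractions.

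In medians over tiles, the log2 ratio of tiles 194 to 307 stood above that of tiles 421 to 614 by 1.70, 2.08 and 1.66 in pairs 1, 2 and 3 (mean 1.81 ± 0.23, SD, n = 3 pairs). Tiles 308 to 420 stood above tiles 421 to 614 by 1.44, 1.43 and 1.05, and tiles 1 to 193 did so by 0.90, 1.10 and 1.16. Tiles 194 to 307 exceeded tiles 308 to 420 by a smaller amount, 0.26, 0.65 and 0.61. All these differences had the same sign in every pair. Pair 1 placed the borders, so its values and the mean that includes them are not independent of that choice. Pairs 2 and 3 did not enter the split, but earlier results of these data were known, so they are no independent support either. Without replicate 1 the mean of the first difference was 1.87. With 3 pairs an exact sign-flip test cannot go below a 2-sided p of 0.25, so none is given for a stretch.

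A finer profile in steps of 25 tile numbers located where the level changed. From tiles 1 to 25 up to tiles 151 to 175, each of the 7 steps had a mean log2 ratio over the pairs between 0.20 and 0.31, with 17 tiles called higher in all. In these steps pair 1 stood at 0.34 to 0.59, pair 2 at -0.09 to 0.18 and pair 3 at 0.04 to 0.42. Tiles 201 to 225 and 226 to 250 were at 1.07 ± 0.28 and 1.08 ± 0.22 (SD, n = 3 pairs), and all 25 tiles of each passed as higher. The value was 0.89 ± 0.33 for tiles 251 to 275 and 0.84 ± 0.44 for tiles 276 to 300. Between 301 and 425 the 5 steps lay at 0.33 to 0.58, with SDs of 0.42 to 0.71. There pair 1 stood at 0.98 to 1.14, pair 2 at 0.05 to 0.44 and pair 3 at -0.19 to 0.25. From 426 on every step was negative in every pair. The lowest was 476 to 500, at -0.50, -1.25 and -0.94, with 23 of 25 tiles called lower and 0 higher. The span from the highest step, 226 to 250, to the lowest was 1.80, 2.34 and 1.80 in pairs 1, 2 and 3. Both steps were picked by their mean over these same pairs, so the span is the widest of the profile by choice.

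Next to the borders, medians of 10 tiles on either side were compared. Pair 1 placed these borders, and earlier results of these data were known, so the steps of no pair are independent of them. The 10 tiles before 421 (411 to 420) had a median log2 ratio of 1.06, 0.61 and 0.33 in pairs 1, 2 and 3, and the 10 tiles from 421 to 430 had -0.36, -1.03 and -0.74, a step of -1.42, -1.64 and -1.07. In pair 2 the ratios of tiles 411 to 420 ran from -0.65 to 1.10 and those of tiles 421 to 430 from -1.41 to -0.53, so the ranges overlapped, as they did in pairs 1 and 3. At 194 the step went up, by 0.86, 1.14 and 0.63, and the ranges overlapped in pairs 1 and 3 but not in pair 2. There the level rose as well: the median Input CPM of the 10 tiles before and the 10 tiles after went from 487 to 641, from 274 to 1183 and from 286 to 1254, and the median immunoprecipitate CPM from 668 to 1522, from 285 to 2613 and from 317 to 2334. At 308, a border that pairs 2 and 3 did not place there, the median ratio fell by 0.65, 1.17 and 0.79. Here the spread of single tiles widened too, from -0.11 to 1.15 before the border to -1.44 to 1.05 after it in pair 2.

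The longest unbroken series of calls ran from hTR_194 to hTR_257, 64 tiles in a row called higher. hTR_194 held 690, 1901 and 2113 CPM in Input and 2329, 4158 and 4217 CPM in the immunoprecipitate, every immunoprecipitate library above every Input library (log2 fold change 1.29 ± 0.26, SE, n = 3 pairs; adjusted p = 3.59e-05 in edgeR). Its neighbour below the border, hTR_193, held 458, 348 and 312 CPM in Input and 595, 294 and 309 CPM in the immunoprecipitate, a log2 fold change of 0.04 ± 0.26. After an interruption at hTR_258 (0.67, adjusted p = 0.0535 in edgeR) the calls went on to hTR_284. At the far end of the 64 tiles, hTR_257 had 731, 4134 and 3786 CPM in Input against 2385, 5773 and 5608 CPM, and its fractions overlapped (0.91 ± 0.29, adjusted p = 0.00451 in edgeR). For the lower direction the longest series was the 28 tiles from hTR_469 (-0.61 ± 0.25) to hTR_496 (-0.68 ± 0.25). Without replicate 2 none of these 4 end tiles passed (adjusted p of 0.120 to 0.379 in edgeR).

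The tile with the largest rise was hTR_220. It held 187, 1744 and 1512 CPM in Input of replicates 1, 2 and 3 and 1540, 4174 and 3303 CPM in the immunoprecipitate. Each pair rose, but the fractions overlapped, and Input replicate 1 held far less of it than the other Input libraries. Its log2 fold change was 1.79 ± 0.28 (SE, n = 3 pairs; adjusted p = 2.33e-07 in edgeR), and 1.31 without replicate 1. Its pairs were uneven, with log2 ratios of 3.04, 1.26 and 1.13. The SE draws on the dispersion of all tiles and does not measure that spread. All 21 of its barcodes with at least 30 reads were higher. Of the 10 tiles that rose most, it was the only tile still called without replicate 2.

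Tile hTR_212 followed, with 495, 1151 and 1215 CPM in Input and 1913, 2802 and 2788 CPM in the immunoprecipitate, without overlap (1.48 ± 0.27, 13 of 13 barcodes higher). hTR_218 held 631, 1776 and 2033 CPM in Input and 2211, 4711 and 4568 CPM in the immunoprecipitate (1.46 ± 0.26, 20 of 20 barcodes), again without overlap. The most even of the 10 was hTR_271, whose pairs had log2 ratios of 1.43, 1.57 and 1.27 (1.42 ± 0.27, 18 of 18 barcodes). hTR_277 and hTR_239, at 1.40 ± 0.27 and 1.28 ± 0.26, lay in the same stretch. Besides hTR_194, given above, the other 3 came from tiles 308 to 420: hTR_373 (1.36 ± 0.24), hTR_343 (1.36 ± 0.25) and hTR_328 (1.30 ± 0.26). Of these, hTR_373 held 532, 807 and 923 CPM in Input against 1485, 2457 and 1825 CPM in the immunoprecipitate, with all 14 barcodes higher. The 10 tiles had an adjusted p between 2.33e-07 and 5.55e-05 in the paired fit of edgeR, between 0.0622 and 0.0900 without the block, and up to 0.124 without replicate 2.

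All 10 tiles that fell most lay between numbers 472 and 569. hTR_537 held 2305, 3079 and 3703 CPM in Input and 1118, 913 and 1257 CPM in the immunoprecipitate, each immunoprecipitate library below each Input library. Its log2 fold change was -1.45 ± 0.26 (n = 3 pairs, SE; adjusted p = 5.92e-06 in edgeR), with 0 of 18 barcodes higher. hTR_542 had nearly the same fold change, -1.46 ± 0.28, from 606, 388 and 338 CPM to 469, 76.9 and 107 CPM. There the fractions overlapped and the pairs were uneven, at -0.37, -2.33 and -1.66.

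hTR_530 went from 3464, 5897 and 6599 CPM to 2582, 1557 and 2010 CPM (-1.36 ± 0.29, 0 of 23 barcodes higher), without overlap. Neither did the fractions of hTR_562 overlap (-1.32 ± 0.29, 0 of 24 barcodes higher). The rest were hTR_476, hTR_543, hTR_569, hTR_533, hTR_481 and hTR_472, at -1.26 to -1.15, with 0 to 2 barcodes higher each. hTR_519, at -1.14 ± 0.24, had one of the 5 smallest p values in the lower direction without being among the 10 lowest. In all 11 the drop was smallest in pair 1. The 10 lowest had an adjusted p of at most 0.000156 in the paired fit of edgeR, of 0.0622 to 0.239 without the block and of 0.120 to 0.206 without replicate 2.

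The 3 tiles of most Input reads all lay among tiles 421 to 614. hTR_586, the most abundant, held 4406, 10521 and 11909 CPM in Input and 4298, 5124 and 5858 CPM in the immunoprecipitate, with a log2 fold change of -0.70 ± 0.32 that did not pass (adjusted p = 0.0534 in edgeR). It was nearly level in pair 1, at -0.04, and at -1.04 and -1.02 in pairs 2 and 3, and without replicate 1 it passed (adjusted p = 7.71e-08 in edgeR). hTR_510 (-1.03 ± 0.31) and hTR_528 (-1.11 ± 0.31) passed in the paired fit and did not pass without replicate 2 (adjusted p of at least 0.182 in edgeR). Tiles 194 to 307 and 308 to 420 differed little from each other in median Input CPM. It was 858 and 865, 2145 and 2181, and 2045 and 2224 in replicates 1, 2 and 3. Of the former 92.1% and of the latter 46.0% were called higher. Whether the level of single tiles in Input bears on this was not tested.

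Tiles 1 to 193 were scarce throughout. Their median Input CPM was 278, 155 and 152 in replicates 1, 2 and 3, against 2014, 2679 and 2850 for tiles 421 to 614. The 3 scarcest tiles of the pool were among them. hTR_57 had 63.2, 69.3 and 74.6 CPM in Input and 167, 78.8 and 63.9 CPM in the immunoprecipitate, so the fractions overlapped (0.46 ± 0.36, not passing). hTR_166, at 63.7, 97.1 and 90.6 CPM against 189, 110 and 144 CPM, had no overlap and passed at 0.80 ± 0.33 (adjusted p = 0.0306 in edgeR). It no longer did without any 1 of the 3 replicates (0.0966 to 0.171). hTR_155 was at 0.48 ± 0.34 and did not pass.

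Within each stretch, single tiles repeated from pair to pair to very different degrees. In tiles 308 to 420 the log2 ratios of pairs 2 and 3 correlated at 0.96 across the 113 tiles, and those of pair 1 with pairs 2 and 3 at 0.67 and 0.65. For tiles 194 to 307 the correlations were 0.82, 0.27 and 0.31 in this order, over 114 tiles. For tiles 421 to 614 they were 0.73, 0.54 and 0.55, over 194 tiles, and for tiles 1 to 193 only 0.20, 0.07 and 0.09. These describe tiles that share libraries and carry no test. The spread was widest in tiles 308 to 420 too, with SDs between tiles of 0.58, 0.74 and 0.65 in pairs 1, 2 and 3, against 0.31, 0.31 and 0.29 in tiles 194 to 307. Tiles 308 to 420 thus held tile-to-tile differences that came back in another pair, while ratios among tiles 1 to 193 hardly did. Input replicates 2 and 3 are nearly alike tile by tile, so the ratios of pairs 2 and 3 share more than the tile. Tiles 1 to 193 were also far scarcer. How far either bears on these correlations was not tested.

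A total of 13 called tiles went against the median of the 5 tile numbers on either side. The widest gap belonged to hTR_407, which held 2435, 5319 and 5265 CPM in Input and 2133, 1934 and 2353 CPM in the immunoprecipitate. It fell by 0.94 ± 0.28 (SE, n = 3 pairs; adjusted p = 0.00249 in edgeR; 1 of 21 barcodes higher), among neighbours with a median of 0.86. In the opposite sense hTR_513 stood among tiles with a median of -0.69. It held 1380, 3383 and 3297 CPM in Input and 3310, 6976 and 5454 CPM in the immunoprecipitate, higher in each pair by 1.26, 1.04 and 0.73 (1.01 ± 0.29, adjusted p = 0.00177 in edgeR; 13 of 13 barcodes higher). Its fractions overlapped, through the low immunoprecipitate value of replicate 1, and it was the only tile from 421 on called higher. hTR_329, hTR_311 and hTR_323 fell, by 0.94, 1.10 and 0.94, where the neighbours' medians were 0.51, 0.24 and 0.37. None of the 5 passed without the block (adjusted p of 0.0686 to 0.115 in edgeR) or without replicate 2 (0.172 to 0.307), and all 5 passed without replicate 1.

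The 8 tiles of 308 to 420 that fell were hTR_311, hTR_317, hTR_323, hTR_329, hTR_330, hTR_336, hTR_356 and hTR_407, and the first 4 of these are 6 numbers apart. This was looked for only after the values were seen, and it is given as a description. Ratios of tiles 6 numbers apart correlated at 0.40, 0.59 and 0.57 in pairs 1, 2 and 3 (107 pairs of tiles), and those 12 apart at 0.27, 0.46 and 0.43. Tiles 3 apart came next, at 0.18, 0.23 and 0.26. Direct neighbours correlated only at 0.09, 0.15 and 0.13, and tiles 5 apart at -0.03, 0.01 and -0.01. Among tiles 421 to 614 the value at a distance of 6 was 0.04, -0.07 and 0.00, and among tiles 1 to 193 it was 0.07, 0.03 and 0.08. Tiles 194 to 307 had their highest values at distances of 3 and 6 in pairs 2 and 3 (0.54 and 0.46 at 3, 0.50 and 0.41 at 6), and 0.08 and 0.13 in pair 1.

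Taking every sixth number of tiles 308 to 420 as a class gave 6 classes of 18 or 19 tiles. The class of hTR_313 and hTR_319 had 14 of 18 tiles called higher and 0 lower, with median log2 ratios of 1.19, 1.05 and 0.79 in pairs 1, 2 and 3. That of hTR_310 and hTR_316 had 16 of 19 higher and 0 lower (1.17, 0.82 and 0.64). The class of hTR_311 and hTR_317 had 4 higher and 5 lower of 19 (0.59, -0.38 and -0.41), and that of hTR_309 and hTR_315 had 2 higher and 0 lower (0.86, 0.02 and -0.08). The remaining classes were that of hTR_312 and hTR_318, with 8 higher and 2 lower of 19 (1.08, 0.16 and -0.06), and that of hTR_308 and hTR_314, with 8 higher and 1 lower of 19 (1.00, 0.05 and -0.16). Without replicate 1 the classes of hTR_313, hTR_310, hTR_311, hTR_309, hTR_312 and hTR_308, in this order, had 14, 18, 6, 6, 9 and 8 tiles called higher and 1, 0, 9, 5, 7 and 4 called lower. Classes did not keep 1 level along the stretch. In the class of hTR_311 the median ratio was -0.11, -1.16 and -1.08 over tiles 308 to 345, then 1.09, 0.43 and 0.34 over tiles 346 to 383, then 0.60, -0.69 and -0.54 over tiles 384 to 420. The class of hTR_313 stayed at 1.18, 0.83 and 0.53, then 1.26, 1.12 and 0.98, then 1.17, 0.97 and 0.69.

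These classes were further apart in Input than in the immunoprecipitate. Over the 6 classes the median CPM ran from 671 to 1186 in Input replicate 1 and from 1572 to 1924 in its immunoprecipitate. It ran from 1516 to 3265 in Input replicate 2 and from 1390 to 3296 in Input replicate 3, and only from 2206 to 3008 and from 2225 to 2526 in the immunoprecipitates of these replicates. In tiles 308 to 420 tiles abundant in Input had lower ratios. Spearman's rho of the ratio with the mean log2 CPM of the Input libraries of the other 2 replicates, which do not enter that ratio, was -0.32, -0.60 and -0.59 in pairs 1, 2 and 3. It was -0.26, -0.48 and -0.46 among tiles 194 to 307, -0.38, -0.27 and -0.28 among tiles 421 to 614 and -0.12, -0.14 and -0.08 among tiles 1 to 193. Input replicates 2 and 3 are nearly alike tile by tile, so these values share more than the tile itself.

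Barcodes of a tile carry the same tile in the same libraries, so they show how evenly a ratio was spread within a tile and are no replicates. Of 15350 barcodes, 3025 (19.7%) had no read in any of the 6 libraries, 0 to 12 per tile. With at least 30 reads over the libraries, 11583 were used, 11 to 25 per tile. In called tiles 92.4% of used barcodes (5929 of 6417) went the way of the call, 94.0% in tiles called higher and 90.9% in tiles called lower. All used barcodes agreed in 104 called tiles, and in 0 called tiles did most go the other way. Each call is made on the sum of the same barcodes, so agreement of most of them with it is largely built in. By stretch, the share of barcodes higher in the immunoprecipitate was 65.3% in tiles 1 to 193, 95.1% in tiles 194 to 307, 69.8% in tiles 308 to 420 and 13% (510 of 3920) in tiles 421 to 614. The median SD of barcode log2 ratios within a tile was 1.16 in the scarce tiles 1 to 193, and 0.53, 0.58 and 0.77 in the other stretches in order.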

How the data were processed

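The 6 hTR-pool libraries are single-end amplicon sequencing of cDNA with primers on the sites shared by all oligonucleotides, per the labels' protocols. The authors deposited raw read counts, 1 line per tile and barcode, per the file headers. Neither the program that assigned reads nor any molecular identifier is named in the sources used here. PCR reads are then not independent molecules, so the precision given by depth (7108444 to 11780535 reads per library) covers counting error only. The labels do not say that replicates were separate cultures, and each p-value then reflects only how far these libraries spread, which may be technical. Columns were matched by name, and 0 columns were left unmatched. Libraries of a group differed beyond counting noise (chi-square per degree of freedom of 57.7 to 1715).

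Counts were summed per tile, filtered with filterByExpr (all 614 kept), TMM-scaled and tested in R 4.3.3 by edgeR 4.0.16 (robust quasi-likelihood F test), with the replicate number as a block and Benjamini-Hochberg adjustment over all tiles. The block is used because Input and immunoprecipitate columns were paired here by the replicate numbers that their labels share. Same-numbered libraries deviated together (correlation of deviations from the group means 0.90, 0.78 and 0.69 in pairs 1, 2 and 3), but libraries of different numbers reached 0.75, above the value of pair 3. This rests on replicate 1, which stands apart in both fractions: between replicates 2 and 3 alone the correlation was 0.08, and 5 of 6 libraries correlated best with their own number. Log2 ratios per pair are differences of log2 CPM with a prior count of 2. An SE is the size of the log2 fold change over the root of its F value. The fit estimates the dispersion of a tile together with that of the other tiles. An SE is therefore not the spread of the 3 pairs of that tile. Barcode ratios compare mean scaled CPM of the fractions, with 0.25 CPM added for their SD. The code was tested on simulated data.

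Named tiles are the 10 highest and 10 lowest calls with all pairs in the same direction, the 5 smallest p values each way, the 3 tiles of most and of fewest Input reads, the 5 calls most opposed to their neighbours and the ends of the longest series. hTR_193, hTR_258, hTR_284, hTR_109, hTR_199, the 8 lower tiles of 308 to 420 and the class tiles were named beside them, after their values were seen. Members, borders and tests were chosen with earlier results of these data known. Alternatives used DESeq2 1.42.0 and limma 3.58.1, RLE or library-size scaling, other filters, prior counts and barcode minimums, and left-out replicates.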

Additional observations from a re-analysis of the deposited data

How the results depend on the processing

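Of the 343 calls of the paired fit, 338 recurred in the same direction with RLE size factors and 341 with library size only. By DESeq2 335 recurred, by limma-voom 343, without the barcode of most reads of each tile 329 and without replicate 1 338. In any fit of tiles 0 turned. All 3 pairs of 334 calls moved in the direction of the call, which left little room for a turn. RLE scaling moved the median log2 fold change of all tiles by 0.12, and gave 230 higher and 162 lower tiles in place of 177 and 166. Without the replicate block the calls were 0 (0 higher, 0 lower) by edgeR. With the block and 1 replicate left out they ranged from 3 to 406 (3 to 198 higher, 0 to 208 lower). Without the block and with 1 library left out they ranged from 0 to 275 (0 to 95 higher, 0 to 180 lower): 275 without Input replicate 1, 67 without immunoprecipitate replicate 1 (41 higher, 26 lower) and 0 without any other library. DESeq2 without the block passed 144 (92 higher, 52 lower). That fit was chosen after seeing the data, as were the count of tiles whose libraries do not overlap (102 above) and the fit without both the block and replicate 1, which called 403. Asking for at least a 2-fold change left 123 calls (85 higher, 38 lower). The cause of these differences was not tested, beyond fewer libraries in the fits that leave some out.

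The distance from tiles 226 to 250 to tiles 476 to 500 (1.98) stayed between 1.80 and 2.07, and that from tiles 194 to 307 to tiles 421 to 614 (1.81) between 1.68 and 1.89, under each prior count, scaling, mean, barcode and replicate setting. These steps and stretches were picked from the same libraries and kept fixed. The ranges therefore describe the settings and are no separate support. The share of barcodes going with the call was 92.4% and became 90.8% with no minimum of reads. Over the 35 named tiles and their refits no direction turned. Most of these tiles were chosen among calls with all pairs in the same direction. The lack of turns was therefore largely set by that choice and is no separate support. Without the block 32 of the named tiles lost their call, and without replicate 2 31 did.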

Other observations

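hTR_417, picked after its values were seen, showed the largest gap between Input libraries in the pool. It held 162, 3878 and 3845 CPM in Input of replicates 1, 2 and 3 and 1208, 3792 and 3646 CPM in the immunoprecipitate. Pairs 2 and 3 were level, at -0.03 and -0.08, while pair 1 was at 2.90. The fitted log2 fold change was 0.85 with an SE of 0.81.

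In 73 tiles pair 1 was above 0 while pairs 2 and 3 were below it, and 177 tiles in all had pairs of mixed sign. All 3 pairs were above 0 in 254 tiles and below 0 in 183. The median ratio over all 614 tiles was 0.49, -0.09 and 0.05 in pairs 1, 2 and 3.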
